A study of Mus musculus with 16 samples.

Results

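The inward rectifier potassium channels of the mouse bladder are described here through 10 genes, of which 9 encode pore subunits (Kcnj2, Kcnj3, Kcnj5, Kcnj8, Kcnj10, Kcnj11, Kcnj12, Kcnj15 and Kcnj16) and 1, Abcc9, encodes a sulfonylurea receptor subunit. The genes were chosen by family and symbol, with earlier results of these data known, the age difference of Kcnj5 among them. The age values of Kcnj5 are therefore a description and carry no test. For the other genes, calls and counts are not those of a set chosen independently of these data. Probes were matched to the 10 genes through their accessions, which gave 13 probes, out of 26582 probes that name 20145 genes by symbol.

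Inward rectifier channels pass potassium into the cell more readily than out of it, and at rest they hold the membrane potential near the potassium equilibrium. They need the membrane lipid PIP2 to open, and some of them are also gated by G protein subunits or by nucleotides. In smooth muscle, channels of the Kir6 type joined to the sulfonylurea receptor SUR2 open when ATP falls, hyperpolarize the cell and oppose contraction, and openers of these channels relax the detrusor.

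Total RNA of the bladder body of C57BL/6 mice was labeled with Cy3 and hybridized to 1-colour Agilent arrays, with 4 arrays in each of 4 groups. The age of MAT mice was 12 months and that of AGED mice 27 to 30 months, and each age held males and females that had received no treatment named in the labels. On a given array 52.3% to 68.2% of the probes were well above background, the lowest share being that of AGED male replicate 1. The female arrays shared a slide and the male arrays shared the other, with row 1 of either slide given to MAT mice and row 2 to AGED mice. Sex therefore cannot be told apart from slide, nor age from slide row, while each age comparison was made within a slide.

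Signals are given as log2 of the processed signal less the 75th percentile of the array, and well above background is the flag that Feature Extraction sets for each spot. Signals of different probes are not read as relative levels of their genes, since probes differ in how they bind, and the brightest gene of a list is picked only to name it. Of the 10 genes, 6 had a probe that passed this flag on 4 or more of the 16 arrays and were tested (Kcnj5, Kcnj8, Kcnj10, Kcnj12, Kcnj15 and Abcc9). Kcnj11 and Kcnj16 were well above background on no array. Kcnj2 passed on 3 MAT female arrays and Kcnj3 on 1 AGED female array, which was too few for a test. The 6 tested genes are therefore those that passed on 4 or more arrays, and counts among them do not describe the 10 genes.

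Every difference between AGED and MAT arrays follows the deposited labels, and for Kcnj5, as for S100a9 among the neutrophil markers, that direction is opposite to the study's. Whether the labels or the study's direction are exchanged cannot be told here, and exchanged labels would turn every age direction given, that of Kcnj12 included. By RT-PCR the study reported lower M3 and P2X1 receptor expression in AGED males and lower β2-adrenoceptor expression in AGED females. Array values of these receptors are not given here. A gene was called at a limma adjusted p under 0.05, over all 26781 genes tested, and at least a 2-fold change. In males limma called 1 of the 6 genes, Kcnj12, which was lower in AGED mice, where 0.848% of all genes tested were called. In females limma called 0 of the 6, where 0.187% of all genes were called, and at an unadjusted p under 0.05 with the same 2-fold limit limma and the methods' t-test each gave 1, which was Kcnj5, beside 508 and 393 of all genes. Complete separation of AGED from MAT arrays was seen for 2 of the 6 genes in males (Kcnj12 and Kcnj5), against 7.97% of all genes, and for 1 in females (Kcnj5), against 10.8%. Kcnj5 was known to differ when the genes were chosen, and nothing is read from its place in these counts. The other genes were also chosen with earlier results of these data known. The counts, with the Kcnj12 call, therefore come from no independent choice of genes. The median log2 change of the 6 genes was -0.38 in males and -0.13 in females, beside 0.00119 and -0.00256 over all genes tested. It includes Kcnj5, so no comparison is drawn from it.

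Among the strong inward rectifiers of the Kir2 type, Kcnj12 encodes a subunit that stabilizes the resting potential of excitable cells. Its log2 signal was -0.70, -0.88, -0.52 and -0.90 in MAT males (replicates 1 to 4) and -1.53, -1.92, -2.87 and -2.44 in AGED males. All 4 AGED male arrays lay below all 4 MAT male arrays, and AGED male replicates 3 and 4 were the lowest of the 16 arrays. In MAT females the signal was -0.88, -1.29, -1.62 and -0.75, and in AGED females -0.46, -1.37, -1.57 and -1.56. The female groups overlapped, and AGED female replicate 1 was the brightest of all 16 arrays. Kcnj12 was 2.71-fold lower in AGED than in MAT males, a log2 change of -1.44 (standard error 0.30, 95% interval -2.08 to -0.80, limma adjusted p = 0.0249). The log2 change in females was -0.11 (95% interval -0.74 to 0.53, limma adjusted p = 0.947). The difference of these changes, tested itself, was -1.33 and was not called (95% interval -2.23 to -0.43, limma adjusted p = 0.271), so a fall particular to males is not shown. In order of mean the levels were -0.75 ± 0.18 (SD, n = 4) in MAT males, -1.13 ± 0.40 in MAT females, -1.24 ± 0.53 in AGED females and -2.19 ± 0.58 in AGED males. The first 3 lay within the spread of their neighbours. In bulk tissue, fewer cells that express a gene and less RNA per cell cannot be told apart.

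The call for Kcnj12 was near the threshold. It was lost when AGED male replicate 3 or 4 or MAT male replicate 1, 2 or 3 was left out, with adjusted p values from limma of 0.0539, 0.0551, 0.0658, 0.0544 and 0.0808 in that order, and over the 16 single omissions the log2 change ran from -1.66 to -1.21. With each sex fitted alone, which stays within the slide, the log2 change was again -1.44 with a limma adjusted p of 0.146.

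Kcnj2, which encodes the subunit of the classical inward rectifier current of vascular muscle and endothelium, was near background. Its log2 signal was -5.88, -6.80, -5.66 and -2.80 in MAT females, of which replicates 1, 3 and 4 were well above background. In AGED females it was -7.17, -7.58, -7.10 and -6.14, with no array well above background. MAT female replicate 4 stands far above the other arrays, and its Kcnj2 spot lies where 141 of 412 neighbouring spots carried a flag on their local background, against 0 to 5 on the other female arrays. The Kcnj2 spot itself carried no such flag. In males the signal ran from -6.44 to -4.83 with no array well above background. No fold is given for Kcnj2, since a bound for MAT females over either group would rest on replicate 4.

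**Figure D1:**
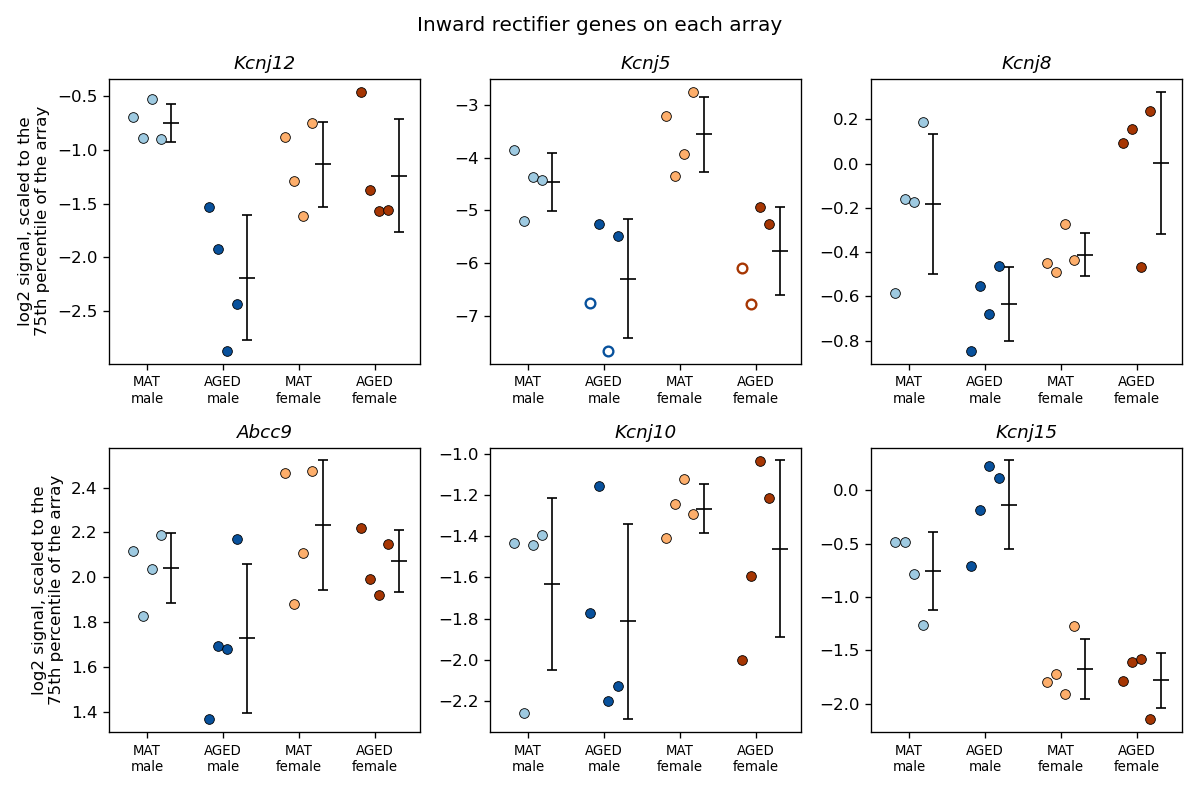
Log2 signal of the 6 tested genes on each array, scaled to the 75th percentile of the array, with replicates 1 to 4 of each group from left to right. Filled points are well above background, open points are not, and bars show the mean and SD of 4 arrays. Kcnj12 in AGED males (-2.87 to -1.53) lies below MAT males (-0.90 to -0.52), and Kcnj15 in AGED males (-0.71 to 0.23) lies above AGED females (-2.14 to -1.58).

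Kcnj5 and Kcnj3 encode subunits of the channels that G protein beta and gamma subunits open after activation of muscarinic M2 and similar receptors, best known from the atrium of the heart. Kcnj5 had log2 signals of -3.85, -5.20, -4.36 and -4.43 in MAT males and -6.77, -5.27, -7.66 and -5.48 in AGED males. In AGED males replicates 2 and 4 were well above background and replicates 1 and 3 were not, and replicate 2 lay just below MAT male replicate 2. In MAT females the signal was -3.21, -4.35, -3.93 and -2.76, and in AGED females -6.09, -6.78, -4.93 and -5.27. There replicates 3 and 4 of the AGED group were well above background, and the female groups did not overlap either. The log2 difference was -1.83 in males and -2.20 in females. The level was -3.56 ± 0.72 in MAT females, -4.46 ± 0.56 in MAT males, -5.77 ± 0.83 in AGED females and -6.29 ± 1.13 in AGED males, and MAT males overlapped MAT females as AGED males overlapped AGED females. The difference between males and females was -0.90 in MAT mice (limma adjusted p = 0.478), and none is given for AGED mice, where 2 of 4 arrays of each sex were not well above background.

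The size of the Kcnj5 difference depended on the processing, and 2 of 4 AGED arrays in each sex were not well above background. With signals under the lowest well above background on their array raised to that floor, the log2 difference was -0.87 in males and -1.79 in females. With normexp background correction, which uses the median spot signal and adds an offset, the log2 difference was -0.29 in males and -0.90 in females. With the signal before the correction for position it was -1.12 and -2.25, but AGED male replicate 3 had no value there. Without that array the processed signal gave -1.38 in males. Kcnj5 had the widest spread of the 6 genes, with a pooled SD within groups of 0.83, above that of 95.3% of all genes tested. In AGED males the mean log2 signal of 14 nerve and glia markers, an observation made after the values were seen, was 0.60 and 0.27 on replicates 2 and 4, where Kcnj5 was well above background, and -0.41 and -0.56 on replicates 1 and 3, where it was not. In AGED females the same mean was -0.28, -0.04, 0.08 and -0.36 (replicates 1 to 4), which does not separate replicates 3 and 4 from the others. On MAT male replicate 2 the marker mean was -0.59, the lowest of all arrays. Kcnj5 was well above background there, at -5.20, the lowest of the MAT males. The part of nerve or glia content in the Kcnj5 signal was not tested.

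Kcnj3, the partner of Kcnj5 in the atrial channel, was read by 2 probes. The probe that passed anywhere was well above background on AGED female replicate 3 alone, at a log2 signal of -4.01, while the other AGED female arrays were at -7.88 to -7.61. The other probe was well above background on no array and ran from -8.68 to -4.50, with its highest signal on AGED male replicate 1, the dimmest array. No fold is given for Kcnj3, since both groups of each comparison were at or near background.

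Of 26 genes for the G proteins, regulators and receptors that act on these channels, 25 were tested. By limma 0 were called in males and 0 in females, while 2 in each sex had all AGED arrays below all MAT arrays, where 7.97% of all genes in males and 10.8% in females were separated in either direction. The median log2 change of the list was -0.20 in males and -0.07 in females. The brightest of them, Gng5, a G protein gamma subunit, had log2 changes of -0.23 in males and -0.03 in females.

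ATP-sensitive channels of smooth muscle and pericytes join the pore subunit encoded by Kcnj8 to SUR2, encoded by Abcc9. The log2 signal of Kcnj8 was -0.58, -0.16, -0.17 and 0.19 in MAT males and -0.85, -0.55, -0.68 and -0.46 in AGED males. MAT male replicate 1 lay among the AGED male arrays, and the groups overlapped. In MAT females it was -0.45, -0.49, -0.27 and -0.43, and in AGED females 0.09, 0.15, -0.47 and 0.24. AGED female replicates 1, 2 and 4 lay above all MAT female arrays, and replicate 3 lay among them. The log2 change was -0.45 in males (limma adjusted p = 0.214), lower in AGED mice, and was -0.22 with normexp and -0.25 before the correction for position. It was 0.41 in females (limma adjusted p = 0.418), higher in AGED mice. The difference of these changes was -0.87 (95% interval -1.40 to -0.34) and was not called (limma adjusted p = 0.218). In AGED mice Kcnj8 was 1.56-fold lower in males than in females, a log2 difference of -0.64 (limma adjusted p = 0.0343) that was under the 2-fold limit of a call, and AGED female replicate 3 overlapped the males. Before the correction for position the means were closer, at -0.41 in AGED males and -0.04 in AGED females.

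For Abcc9 the log2 signal was 2.12, 1.83, 2.04 and 2.19 in MAT males and 1.37, 1.69, 1.68 and 2.17 in AGED males. AGED male replicates 1 to 3 lay below all MAT male arrays, and replicate 4 lay among them. In MAT females the signal was 2.47, 1.88, 2.11 and 2.47, and in AGED females 2.22, 1.99, 1.92 and 2.15, so that the female groups overlapped throughout. The log2 change was -0.32 in males (95% interval -0.69 to 0.06, limma adjusted p = 0.386). In females it was -0.16 (95% interval -0.53 to 0.21, limma adjusted p = 0.814), and -0.40 with spots of a flagged background left out. Single omissions moved the change from -0.46 to -0.20 in males and from -0.28 to -0.08 in females. Before the correction for position, which is described with Kcnj15, the signal was 1.42, 2.16, 2.08 and 2.33 in MAT males and 1.79, 2.07, 1.17 and 1.33 in AGED males, so that AGED male replicates 3 and 4 were then the lowest. Kcnj8 and Abcc9 were the least variable of the 6 genes, each with a pooled SD within groups of 0.24, where the median over all genes tested was 0.30.

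Over the 16 arrays, after each group's mean was subtracted, the signals of Kcnj8 and Abcc9 had a Pearson r of 0.36 (permutation p = 0.103) and a Spearman rho of 0.42 (permutation p = 0.107). With spots of a flagged background left out, which 3 of the Abcc9 spots were, r was 0.62. Of 3 pairs that form a channel together this was the 1 that could be computed, so the adjusted values are the same. Without AGED female replicate 3 and MAT male replicate 1, the arrays farthest from the median of Kcnj8, r was 0.49. Within the slides r was 0.44 over the 8 male arrays and 0.27 over the 8 female arrays.

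Kcnj11, the pore subunit of the ATP-sensitive channel of pancreatic beta cells, was read by 2 probes. Neither was well above background on any of the 16 arrays, with log2 signals of -8.65 to -5.60, so that Kcnj11 was not detectable at this signal over background. Of 18 genes for the receptors and kinases that act on ATP-sensitive channels, all 18 were tested, and limma called 0 in males and 0 in females. The groups did not overlap for 1 (AGED higher) in males and for 5 in females, of which 2 were higher and 3 lower in AGED mice, beside 7.97% and 10.8% of all genes. The median log2 change of this list was 0.09 in males and -0.13 in females. Its brightest gene, Prkacb, a catalytic subunit of protein kinase A, had log2 changes of -0.21 and -0.31.

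Kcnj10, Kcnj15 and Kcnj16 encode subunits known from glia and from epithelia that transport potassium. The log2 signal of Kcnj10 was -1.43, -2.26, -1.44 and -1.39 in MAT males and -1.78, -1.16, -2.20 and -2.13 in AGED males. MAT male replicate 2 was the lowest of the 16 arrays, far from the other MAT males, and AGED male replicate 2 was the highest male array. In MAT females the signal was -1.41, -1.24, -1.12 and -1.29, and in AGED females -2.002, -1.59, -1.03 and -1.21, so that AGED females spanned the MAT females. The log2 change was -0.18 in males (limma adjusted p = 0.757) and -0.19 in females (limma adjusted p = 0.861). Single omissions moved it from -0.40 to -0.06 in males and from -0.34 to -0.01 in females, and before the correction for position it was -0.46 in males. On MAT male replicate 2 the mean log2 signal of the 14 nerve and glia markers, also looked up after the values were seen, was -0.59, the lowest of the 16 arrays, and on AGED male replicate 2 it was 0.60, the highest. AGED male replicate 4 went the other way, with Kcnj10 at -2.13 and a marker mean of 0.27. Their part in the Kcnj10 values was not tested.

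Kcnj15 had log2 signals of -0.49, -0.49, -0.79 and -1.26 in MAT males and -0.71, -0.19, 0.23 and 0.11 in AGED males. AGED male replicates 2, 3 and 4 lay above all MAT males, and replicate 1 lay among them. In MAT females it was -1.79, -1.72, -1.91 and -1.27, and in AGED females -1.79, -1.61, -1.58 and -2.14. All 8 female arrays lay below the males, with MAT female replicate 4 next to MAT male replicate 4. The log2 change with age was 0.62 in males (95% interval 0.13 to 1.11, limma adjusted p = 0.197) and -0.11 in females (95% interval -0.59 to 0.38, limma adjusted p = 0.928), and neither was called. Their difference was 0.72 (95% interval 0.03 to 1.41, limma adjusted p = 0.487). The second probe of Kcnj15 was well above background on 1 MAT female array alone and was not tested.

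Between the sexes limma called 1 of the 6 genes in AGED mice, Kcnj15, where 3.11% of all genes tested were called. AGED males were 3.12-fold higher than AGED females, a log2 difference of 1.64 (standard error 0.23, 95% interval 1.15 to 2.13, limma adjusted p = 0.0013). In MAT mice limma called 0 of the 6 genes, where 0.157% of all genes were called, and at an unadjusted p under 0.05 limma and the methods' t-test each gave 0 at the same fold limit, beside 686 and 611 of all genes. There the log2 difference of Kcnj15 was 0.92, with males higher (95% interval 0.43 to 1.41, limma adjusted p = 0.103). The levels, in order, were -0.14 ± 0.42 in AGED males, -0.75 ± 0.37 in MAT males, -1.67 ± 0.28 in MAT females and -1.78 ± 0.26 in AGED females, and the female groups lay within each other's spread. A test of whether the age change itself differed between the sexes had no fold limit. At a limma adjusted p under 0.05, 0 of the 6 genes passed it, where 0.149% of all genes passed. At an unadjusted p under 0.05, 3 of the 6 (Kcnj8, Kcnj12 and Kcnj15) and 2650 of all 26781 genes passed. The sex difference cannot be told apart from the slide.

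The Kcnj15 values of AGED males rest on a correction for the place of a spot on the array, which Feature Extraction makes when it computes the processed signal. Over 29538 spots that were well above background on every array, the SD of the log2 correction was 0.43 to 0.48 on AGED male arrays, 0.08 to 0.35 on MAT male arrays and 0.04 to 0.11 on female arrays. At the Kcnj15 spot the correction raised the 4 AGED male arrays by 0.58, 0.66, 1.37 and 1.54 relative to the median spot of the array, and moved the other 12 arrays by -0.25 to 0.12. The 166 such spots within 10 rows and columns of it, each set against its own median over the 16 arrays, were low on AGED male arrays before the correction, by -0.39, -0.41, -1.17 and -1.20 in the median. After it they stood at -0.01 to 0.04. Before the correction the log2 signal of Kcnj15 was -1.18, -0.67, -0.95 and -1.22 in AGED males, and -1.56, -1.67, -1.61 and -2.14 in AGED females. The males were still above the females on each of these 8 arrays, but the means were closer, at -1.004 and -1.74. Their difference was then under the 2-fold limit, so limma no longer called it. In MAT mice the means before the correction were -0.69 in males and -1.57 in females. The sexes thus stood no further apart in AGED than in MAT mice before the correction. The age difference in males then turned to -0.31 (limma adjusted p = 0.389). With normexp background correction, which makes no correction for position, it was -0.23 (limma adjusted p = 0.443), and the sex difference in AGED mice was not called either.

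For Kcnj12 the correction was smaller and lowered the AGED male arrays. It moved the Kcnj12 spot by -0.46, -0.10, -0.04 and -0.09 on AGED male arrays and by -0.03, -0.20, 0.00463 and 0.39 on MAT male arrays, and the 207 neighbouring spots stood at 0.02 to 0.09 on AGED and -0.16 to 0.03 on MAT male arrays after it. Before the correction Kcnj12 was at -0.97, -1.65, -2.63 and -2.14 in AGED males and -0.64, -0.64, -0.52 and -1.16 in MAT males, so that the groups then overlapped by 1 array of each. The log2 change in males was then -1.10 (limma adjusted p = 0.0528), and with normexp it was -0.91 (limma adjusted p = 0.0602). It kept its direction and was not called under either.

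**Figure D2:**
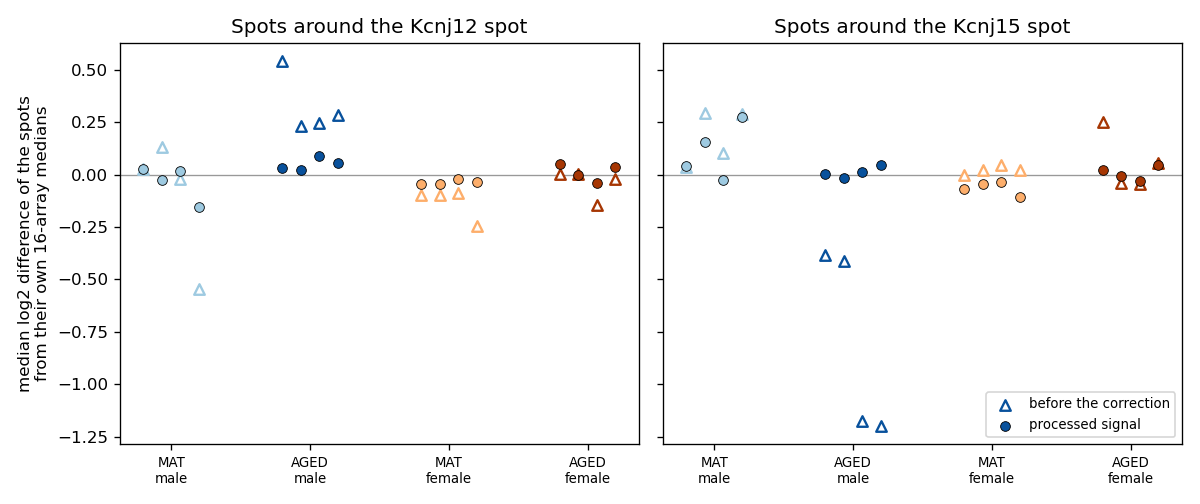
Median log2 difference of the bright spots around the Kcnj12 spot (207 spots) and the Kcnj15 spot (166 spots) from their own medians over the 16 arrays, with replicates 1 to 4 of each group from left to right. Triangles show the signal before the correction for position and circles the processed signal. Around Kcnj15 the AGED male arrays stand at -1.20 to -0.39 before and -0.01 to 0.04 after the correction.

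Kcnj16, the partner of Kcnj10 in epithelial channels, was well above background on no array, with log2 signals of -8.62 to -6.94. Of 22 genes that supply PIP2 or anchor these channels, 21 were tested, and limma called 0 in males and 0 in females. The groups did not overlap, with AGED higher, for 2 in males and 1 in females, beside 7.97% and 10.8% of all genes. The median log2 change of the list was 0.02 in males and 0.10 in females, and its brightest gene, Pi4ka, a phosphatidylinositol kinase, had log2 changes of 0.07 and 0.05.

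Of the 7 other genes of the family, 4 were tested (Kcnj4, Kcnj6, Kcnj13 and Abcc8), and limma called 0 in males and 0 in females. Their median log2 change was -0.25 in males and -0.38 in females, and both values include Kcnj4. In females Kcnj4 was at -0.96, which rests on MAT female replicate 4. In males its AGED arrays were not well above background, so the male median rests in part on signals near background. Kcnj6, a neuronal relative of Kcnj3, was lower on all 4 AGED male arrays than on the MAT male arrays, with a log2 change of -0.36 (limma adjusted p = 0.212). Abcc8, the sulfonylurea receptor of beta cells, was read by 2 probes, and on both the AGED female arrays lay below the MAT female arrays. Its tested probe had a log2 change of -0.58 in females (limma adjusted p = 0.358), and the other probe differed by -0.68. Kcnj13, known from epithelia, had log2 changes of -0.13 and -0.17 in males and females. Kcnj4, another Kir2 gene, was well above background on all 4 MAT male and no AGED male arrays, but the groups overlapped, and no fold is given. Kcnj1 was well above background on no array, Kcnj9 on 2 MAT female arrays and Kcnj14 on 1 MAT female array.

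Markers of the bladder's cell types were examined beside the channel genes. The smooth muscle list, whose brightest gene was Cnn1, had mean log2 signals of 5.95 in MAT males, 5.91 in AGED males, 5.85 in MAT females and 5.85 in AGED females. The urothelium list, led by Upk1a, had 4.47, 4.52, 4.12 and 4.26 in the same order. Kcnj8 and Abcc9 are themselves among the 10 pericyte markers, which had means of 1.07, 0.92, 1.11 and 0.98, with the brightest, Anpep, at a log2 change of -0.71 in males (limma adjusted p = 0.167). The nerve and glia list, led by Snap25, had 0.06, -0.03, 0.34 and -0.15. In females 7 of its 14 genes did not overlap between the groups, all lower in AGED mice, against 10.8% of all genes, and its median log2 change was -0.46, while in males 1 did not overlap, which was higher in AGED mice, against 7.97% of all genes, and the median was -0.14. Limma called 0 of these 14 genes in either sex. Kcnj5 was lower in AGED mice of both sexes. The mean of this list was 0.34 in MAT and -0.15 in AGED females, but 0.06 in MAT and -0.03 in AGED males. The part of nerve content in Kcnj5 was not tested.

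Of the other marker lists, limma called 2 genes in males, S100a8 (log2 change 2.43, adjusted p = 0.0212) and S100a9 (3.08, adjusted p = 0.0125), where 0.848% of all genes were called. Both were higher in AGED mice. The study names S100a9 among its most changed genes with age, and the lists were chosen with earlier results of these data known. These calls are therefore a description. In females limma called 0, where 0.187% of all genes were called. Both called genes belong to the neutrophil list, of whose 7 tested genes 3 had a positive and 4 a negative log2 change in males. That list's mean was -1.72 in MAT and -0.85 in AGED males, and -1.81 in MAT and -1.10 in AGED females. The median log2 changes in males and females were 0.37 and 0.43 for 8 macrophage genes, 0.51 and -0.21 for 11 lymphocyte genes, and -0.01 and 1.13 for 7 neutrophil genes. They were -0.06 and 0.00292 for 11 endothelial genes, -0.29 and -0.06 for 11 genes of interstitial cells and fibroblasts, and -0.30 and -0.95 for 8 adipocyte genes. They were -0.22 and -0.13 for 9 genes of skeletal and cardiac muscle, and -0.25 and -0.08 for the 2 tested genes of the male accessory glands. The macrophage list had a mean log2 signal of 2.792 on AGED male replicate 1. The other AGED males were at 1.782 to 1.851 and MAT males at 1.775 to 1.897. The lymphocyte list had a mean of -2.08 on AGED female replicate 1. The other AGED females were at -0.64 to 0.03 and MAT females at -0.64 to 0.21. The brightest genes of the lists without a call were Csf1r, Jchain, Egfl7, Dcn, Fabp4, Tnnt2 and Spink1, and none of them was called by limma in either sex. Their part in the values of the channel genes was not tested.

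Among 15753 genes with a symbol and a value on every array, those whose log2 signal was most like that of Kcnj5 over the 16 arrays were Rftn2 (Pearson r 0.923, Spearman rho 0.944), Cntn4 (0.920 and 0.921) and Ank2 (0.919 and 0.897). They had log2 changes of -0.56, -0.43 and -0.31 in males and -0.53, -0.49 and -0.52 in females, none called by limma. The gene most like Kcnj12 was Prkca (r 0.874, rho 0.77), with log2 changes of -0.70 in males and -0.11 in females. The gene most like Kcnj15 was Adi1 (r 0.979, rho 0.97), with a log2 difference of 0.50 between AGED males and AGED females. For Kcnj8 it was Lyn (r 0.862, rho 0.83) and for Kcnj10 Slc5a11 (r 0.860, rho 0.75). For Abcc9 it was Vmn2r33 (r 0.882), where rho was lower, at 0.68. Each is the highest of a search over all these genes, and the value is a description.

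Several of the genes lie next to each other in the RefSeq annotation. Kcnj8 and Abcc9 are neighbours on chromosome 6, Kcnj16 and Kcnj2 on chromosome 11, Kcnj10 and Kcnj9 on chromosome 1, Kcnj5 and Kcnj1 on chromosome 9, Kcnj11 and Abcc8 on chromosome 7, and Kcnj6 and Kcnj15 on chromosome 16. Within these pairs, both genes were tested for Kcnj8 with Abcc9 and for Kcnj6 with Kcnj15. Kcnj15 was higher in males than in females in AGED mice, whereas the log2 difference of Kcnj6 was -0.19 (limma adjusted p = 0.428).

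RefSeq promoters (GRCm38.p6, 300 bases around a gene's start) were held for 9 of the 10 genes. Those of Kcnj5 and Kcnj12 are shown, since these were the genes whose AGED male arrays all lay below the MAT male arrays. They were searched on both strands for TATAAA (in 13.6% of all 32851 promoters), for CCAAT (in 37.4%) and for GGGCGG (in 35.7%), and capitals mark a match. The Kcnj5 promoter, chr9:32344295-32344594 on the minus strand, holds GGGCGG at 2 places, and that of Kcnj12, chr11:61065554-61065853 on the plus strand, holds none of these motifs.
Kcnj5: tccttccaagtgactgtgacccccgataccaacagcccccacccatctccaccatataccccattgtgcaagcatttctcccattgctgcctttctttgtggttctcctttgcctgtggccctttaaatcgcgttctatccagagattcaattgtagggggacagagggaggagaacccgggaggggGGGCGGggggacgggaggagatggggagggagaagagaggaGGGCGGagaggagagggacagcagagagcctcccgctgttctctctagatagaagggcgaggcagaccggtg
Kcnj12: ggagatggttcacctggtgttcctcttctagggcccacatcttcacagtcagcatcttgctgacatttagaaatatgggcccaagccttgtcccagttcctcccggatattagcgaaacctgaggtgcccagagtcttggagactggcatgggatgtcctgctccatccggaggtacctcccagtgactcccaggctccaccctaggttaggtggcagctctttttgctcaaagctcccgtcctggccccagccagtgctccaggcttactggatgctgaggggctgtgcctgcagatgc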

How the data were processed

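The members and gene lists were chosen with earlier results of these data known. The authors scanned the arrays and deposited, for each spot, an intensity from Feature Extraction (version 10.7.3.1 in the file headers, 9.1 in the submitters' processing notes), namely the processed signal after background subtraction and a correction for position. Their deposited table of log2 values, centred on each probe's median by the authors, served as an alternative.

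Control spots and 399 probe values with an outlier flag were left out, no spot was saturated, and log2 processed signals were scaled to the 75th percentile. Probes needed the flag well above background on 4 or more of 16 arrays, which left 36972 probes and 26781 genes (15933 with a symbol, the others under the array's systematic name), and a gene took its kept probe with the highest mean. Names came from accessions in the RefSeq annotation. Groups were fitted in 1 limma 3.58.1 model (R 4.3.3, 12 residual degrees of freedom) with Benjamini-Hochberg adjustment, checked on simulated data. The correlation was tested by 100000 two-sided permutations within groups. Tables used Python 3.11.15, pandas 2.3.3 and SciPy 1.17.1. The number of arrays limits the precision.

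No fold is given against a group with no array well above background.

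The genes named are the 10 members, the 7 other family genes, of each other list the called genes or otherwise its brightest, and the 3 genes most like Kcnj5 and 1 most like each other tested member. The lists were G proteins and receptors, PIP2 supply, receptors and kinases of ATP-sensitive channels, and the markers of 12 cell types or tissues. Single arrays and nerve marker means beside Kcnj5 and Kcnj10 were singled out after their values were seen.

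Alternatives were quantile and median scaling, the authors' table, normexp background correction (the mean spot signal was planned and the median used), 2 other filters, a floor on low signals, the mean of a gene's probes, the methods' t-test, limma unadjusted or with no fold limit, fits of each sex alone, array weights, a variance trend, a replicate block and leaving out each array. Leaving out spots with a flagged background and the signal before the correction for position were chosen after seeing the data.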

Additional observations from a re-analysis of the deposited data

Results flagged for a closer look

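In 3 of 40 groups of 4 arrays, over the 10 tested genes of the family, 1 array stood far from the other 3, and chance gives about 1 in 20, or 2 of 40. The log2 signal of Kcnj10 on MAT male replicate 2 was -2.26, while the other MAT males were at -1.44 to -1.39. Its neighbouring spots, 193 of them bright, stood at -0.00406 to 0.0196 on the MAT male arrays. The log2 signal of Kcnj4 on MAT female replicate 4 was -0.17, while the other MAT females were at -5.56 to -5.03. The Kcnj4 spot of that array carried a flag on its local background, as did 146 of 413 neighbouring spots, against 0 to 7 on the other MAT female arrays, and 21.4% of the neighbouring spots lay over 2-fold from their usual signal. Abcc8 on MAT female replicate 2 had a log2 signal of -1.45, while the other MAT females were at -1.83 to -1.81. The causes were not tested.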

How the results depend on the processing

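The Kcnj12 call in males (1 gene) held under quantile and median scaling, the authors' table, other filters, the floor, array weights, a variance trend and the replicate block (adjusted p = 0.0207, with 0 genes called in females and 1, Kcnj15, between the sexes in AGED mice). The count in males was 0 with normexp (753 of all genes called), with the signal before the correction for position (1346), with each sex fitted alone (14) and with the methods' t-test after adjustment (0), and 2 (Kcnj12, Kcnj5) with limma or the methods' t-test unadjusted (747 and 496 of all genes). In females it was 1 with the floor (56 of all genes), array weights (198), limma unadjusted (508) and the methods' t-test unadjusted (393). That gene is Kcnj5, whose age values carry no test, so nothing is read from these counts. Between the sexes in AGED mice it was 0 with normexp (1143 of all genes), before the correction for position (2118) and with the adjusted t-test (46), and 2 (Kcnj8, Kcnj15) without the fold limit (2549). In MAT mice it was 1 (Kcnj15) with array weights (622 of all genes). The test of a difference between the sexes in age change had no fold limit. It gave 3 genes with limma unadjusted, where 2650 of all 26781 genes passed, and 0 adjusted.

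The male age change of Kcnj15 turned to -0.23 with normexp and -0.31 before the correction for position. Its female change, -0.18 to 0.03 over single omissions, turned to 0.0158 without AGED female replicate 4 and 0.0279 without MAT female replicate 4, and that of Kcnj12, -0.37 to 0.02, to 0.00314 without AGED female replicate 3 and 0.0203 without MAT female replicate 4. Leaving out single arrays gave 0 to 1 called genes in males and 1 to 2 between the sexes in AGED mice, where Kcnj12 was added without AGED male replicate 1. Kcnj12 was no longer called in males without AGED male replicate 3 (-1.21) or 4 (-1.36) or MAT male replicate 1 (-1.42), 2 (-1.48) or 3 (-1.36), which also leaves fewer arrays. The Kcnj8 and Abcc9 correlation was 0.26 to 0.50 over single omissions and 0.62 without spots with a flagged background. Other causes were not tested. Arrays of the same number, after group means were subtracted, correlated at -0.15 to 0.16 (24 pairs) and others at -0.29 to 0.27 (72 pairs).

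A slide block was not run, since slide and sex are the same division, and the correlations of Kcnj10 with Kcnj16 and Kcnj3 with Kcnj5 could not be computed because Kcnj16 and Kcnj3 were not detected on enough arrays. Signal over background limits what can be said of Kcnj2, Kcnj3, Kcnj11 and Kcnj16.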
